A study of Mus musculus with 768 samples.

Results

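KLRG1 is an inhibitory receptor of the C-type lectin-like family that sits on NK cells and T cells, and the wells described here are tumor-infiltrating NK cells in which its transcript, Klrg1, was detected. On mouse NK cells KLRG1 is a marker of maturation: it appears late, when cells have gained CD11b and are losing CD27. It binds E-, N- and R-cadherin on other cells and carries a tyrosine motif in its cytoplasmic tail that recruits the phosphatases SHIP-1 and SHP-2. The wells were selected on this transcript alone. A well belonged to the Klrg1-positive cells when Klrg1 was above 0 RPKM (mapped reads scaled to transcript length and to the depth of the well) and the well held between 1000 and 3500 detected genes, counting genes found in at least 3 wells. Of the 726 wells kept, 360 of them WT, 56 WT wells and 81 PD-1-/- wells were members. They were compared with the wells of their own plate that passed the same limits with Klrg1 at 0.

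The cells came from MTAP1A tumors, which grow from 1 clone of a Tap1-deficient, chemically induced fibrosarcoma, in male mice of 8 to 12 weeks. Viable cells were gated on surface markers that included NK1.1+, CD3- and GR1- and were sorted singly into a multiwell plate from the pooled tumors of 3 C57BL/6 mice (WT), and into a second plate from the pooled tumors of 3 mice of the strain C57BL/6, PDCD-1(PD-1)-/-, in which the Pdcd1 gene is disrupted in every cell and not in NK cells alone. SMART-SEQ2, a full-length single cell RNA protocol without molecular identifiers, was used for all wells. A genotype is therefore a single pool on a single plate, and effects of genotype and of plate cannot be told apart. Cells of a pool are not replicates, so that no test was made and no p-value is given. The exact (Clopper-Pearson) 95% intervals of shares cover counting error only. Since Klrg1 chose the wells, every difference between Klrg1-positive and Klrg1-negative wells given here is a description.

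The inhibitory motif of Klrg1 is shown because it is what ties the receptor to the phosphatases described further on. The first 60 coding bases of the mouse Klrg1 transcript, from GENCODE release vM21 (GRCm38), are given with the motif in capitals. The capitals are the codons 5 to 10, the first of 2 matches to the residue pattern S, I, V or L, any residue, tyrosine, any 2 residues and I, V or L. The tyrosine is codon 7, in the stretch that forms the cytoplasmic tail.
Klrg1: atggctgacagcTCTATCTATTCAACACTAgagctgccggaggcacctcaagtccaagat

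Klrg1 was found in 15.6% of the kept WT wells (56 of 360, interval 12% to 19.7%) and in 22.1% of the kept PD-1-/- wells (81 wells, interval 18% to 26.7%). The intervals overlap. Within the members the level ran from 1.9 through a median of 327.3 to 905 RPKM on the WT plate, and from 1.55 through a median of 444 to 2397 RPKM on the PD-1-/- plate. Most members were therefore far above the limit that chose them, but there was a tail at the bottom. In 6 WT and 7 PD-1-/- members the value rested on 1 recovered read, and 6 wells on each plate lay under 10 RPKM. The 3 lowest WT members held 1.9, 1.92 and 1.96 RPKM and the 3 lowest PD-1-/- members 1.55, 2.01 and 2.12 RPKM, while all wells just outside the limit are at 0. With 10 RPKM as the limit, the shares were 13.9% and 20.5%.

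**Figure D1:**
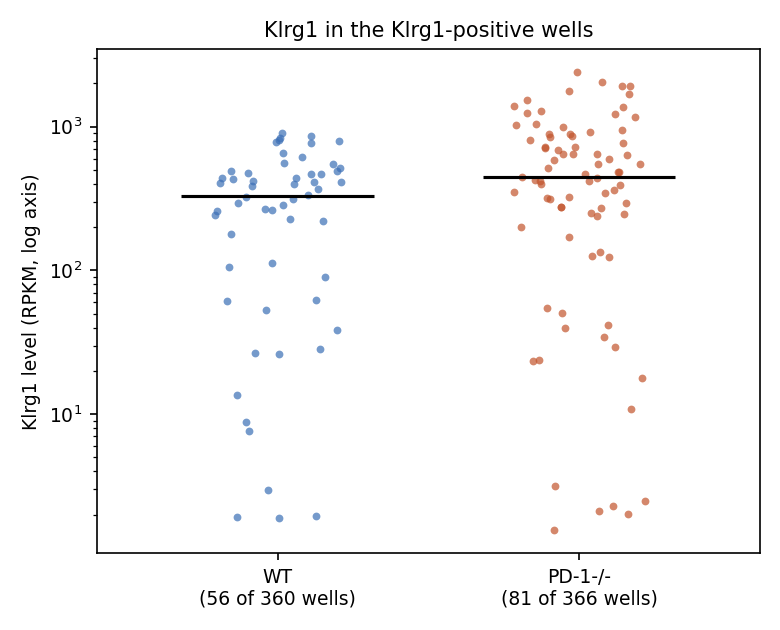
Klrg1 level in RPKM, on a log axis, in each Klrg1-positive well of the WT plate (56 wells) and of the PD-1-/- plate (81 wells); the horizontal lines are medians, at 327.3 and 444 RPKM. Most wells lie above 100 RPKM, and a separate tail of 6 wells on each plate lies under 10 RPKM.

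The filter on gene number touched few members. Of the 24 WT wells removed, 7 held Klrg1, and all 7 were among the 16 wells with over 3500 genes. Of the 18 PD-1-/- wells removed, 2 held Klrg1, again with over 3500 genes. No caller of doublets was run on these sorted wells. Members were spread over the plates: their share in the upper rows (A to H) of the WT plate was 15.2%, its lower rows (I to P) held 15.9%, and the same parts of the PD-1-/- plate held 21.7% and 22.5%. Single rows ranged from 4.76% (row B) to 34.8% (row N) on the WT plate and from 4.55% (row O) to 43.5% (row K) on the PD-1-/- plate, each row holding at most 24 kept wells.

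**Figure D2:**
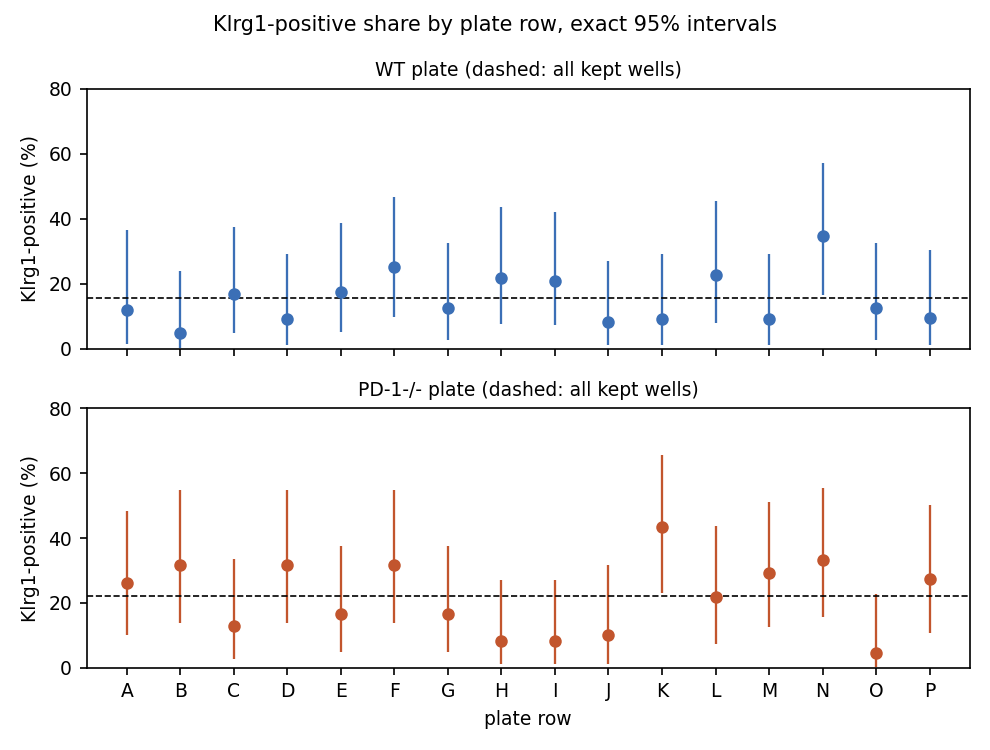
Share of kept wells with Klrg1, in percent, in each of the plate rows A to P of the WT plate (top) and of the PD-1-/- plate (bottom), with exact 95% intervals; the dashed lines are the shares of the whole plates, 15.6% and 22.1%. On each plate the intervals include the dashed line in all rows except 1, which is row N of the WT plate (34.8%) and row K of the PD-1-/- plate (43.5%).

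Depth differed a little between members and other wells, and on the WT plate the number of detected genes did too. WT members had a median of 2422 genes and 354459 recovered reads, against 2244 genes and 334962 reads in Klrg1-negative wells. PD-1-/- members had 2232 genes and 358045 reads, against 2269 genes and 361226 reads. Over all genes compared, the share of wells with a gene was shifted as well: its median difference between members and negative wells was 3.62 percentage points on the WT plate and -0.175 points on the PD-1-/- plate. In the genes with recovered reads, and with wells thinned to 100000 of them, the shifts were 3.15 and -0.626 points. Wells with fewer reads were left out of all thinned values. These were 1 WT member and 23 WT negative wells (1.79% and 7.57%), and 2 and 12 wells on the PD-1-/- plate (2.47% and 4.21%). The part of this shift in the shares of single genes on the WT plate was not tested. Klrg1 itself was found in 14.2%, 11.7% and 20.8% of the WT wells when these were split by depth into 3 equal groups, from the shallowest to the deepest, and in 18.9%, 24.6% and 23% of the PD-1-/- wells, with intervals that overlap on each plate.

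Members held transcripts of NK cells, and all 8 genes of the NK cell list passed the filter given below. Of these, 2 had ratios above 0 on both plates and 1, Eomes, below 0 on both. Eomes was in 67.9% of WT members and 60.9% of WT negative wells, but in 42% and 58.9% on the PD-1-/- plate. Whether members include ILC1, a related innate lymphoid cell, was not tested. Ncr1, which encodes the NK receptor NKp46, was in 98.2% of WT and 93.8% of PD-1-/- members, Klrb1c (NK1.1) in 100% and 96.3%, and all members of both plates held transcripts of Fcer1g, the signaling adaptor chain. CD3 genes were in 17.9% of WT members (interval 8.91% to 30.4%) and in 18.1% of WT negative wells, and in 22.2% and 22.8% on the PD-1-/- plate, so that the presence of these transcripts was alike in members and other wells. Their level was not alike on the WT plate, where the mean of Cd3g was 24.9 RPKM in members and 115.9 RPKM in negative wells. Over the whole T cell list the summed level had a median of 0 RPKM in members of both plates, with maxima of 2193 and 6140 RPKM. The list of 5 myeloid genes showed another picture on the WT plate. At least one of them was in 21.4% of WT members (interval 11.6% to 34.4%) and 11.5% of WT negative wells, against 8.64% and 6.67% on the PD-1-/- plate. Lyz2, a lysozyme gene of macrophages and neutrophils, was in 10.7% of WT members and 3.95% of WT negative wells, and the summed level of the list had a median of 0 RPKM and a maximum of 662 RPKM in WT members. Neutrophil genes were in 0 of 56 WT members, which allows a share of up to 5.36% when a limit of 3 wells is set for a count of 0, and in 1.23% of PD-1-/- members, B cell genes in 1.79% and 2.47%, and fibrosarcoma genes in 3.57% and 3.7%. The 8 ILC2 and mast cell genes were seen in 42.9% and 43.2% of members, with Gata3, which NK cells also express, in 41.1% and 43.2%. In all, 21.4% of WT members and 30.9% of PD-1-/- members held a gene of the T cell list, against 22.4% and 25.6% of negative wells.

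Across all genes, few moved alike on both plates. A gene was compared when its mean reached 10 RPKM and it was present in at least 20% of the wells in one of the groups, on both plates, which left 3784 genes without Klrg1. The log2 ratio of the mean RPKM plus 1 in members over that in negative wells reached 2-fold (a log2 ratio of 1) upward for 39 genes on the WT plate (1.03% of those compared) and downward for 96 (2.54%). On the PD-1-/- plate 35 genes were higher (0.925%) and 85 lower (2.25%). Only 2 genes were 2-fold higher on both plates (0.0529%) and 3 were 2-fold lower on both (0.0793%), while 5 passed the fold in opposite directions (0.132%). The median ratio was -0.02 and -0.03. Ratios were above 0 on both plates for 22.9% of genes and below 0 on both for 29.3%, and across the 3784 genes, which are not independent replicates, Pearson's r of the ratios on the 2 plates was 0.0372.

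The 2 genes that were higher on both plates were Fam111a, a protease gene involved in DNA replication, and Pias3, which encodes an E3 SUMO ligase that inhibits STAT3. The mean of Fam111a was 41.1 RPKM in WT members and 16.7 RPKM in WT negative wells, and 35.1 and 14.5 RPKM on the PD-1-/- plate (log2 ratios 1.25 and 1.22). It was present in 30.4% of WT members against 17.8% of negative wells and in 28.4% against 18.2% on the PD-1-/- plate. Pias3 had log2 ratios of 1.30 and 1.01 and was in 23.2% and 23.5% of members. Lower on both plates was Tle4, a corepressor of the Groucho family, whose mean was 4.49 RPKM in WT members and 11.9 RPKM in negative wells, and 4.74 and 11.6 RPKM on the PD-1-/- plate (log2 ratios -1.23 and -1.13). Its share was lower in WT members (14.3% against 23.4%) but not in PD-1-/- members (24.7% against 24.2%). The other genes lower on both plates carried only clone names, 2900060B14Rik and 5730408K05Rik. Each of the 5 was found in a minority of the members, and none was in the lists of NK cell genes. Without the wells that held CD3 transcripts 14 genes passed on both plates in the same direction, and without those that held myeloid transcripts 9 did.

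A mean of RPKM in single cells follows the few wells with the highest values, and the same comparison on a scale that weighs all wells alike gave other genes. With the difference of the mean log2(RPKM + 1) per well, 15 genes passed a difference of 1 in the same direction on both plates, 13 higher and 2 lower, none of them among the 5 above. This scale also carries the number of wells without any read, and its median over all genes was 0.19 on the WT plate and -0.04 on the PD-1-/- plate. The 13 genes higher in members on both plates included Gzma (1.72 on the WT plate and 2.78 on the PD-1-/- plate). They also included Prf1 (1.61 and 1.2) and Gzmb (1.27 and 1.72). Gzma, Prf1 and Gzmb encode the granule proteins granzyme A, perforin and granzyme B. S1pr5 (1.02 and 1.25), the receptor through which NK cells leave lymph nodes and bone marrow, Il12rb2 (1.21 and 1.93), a chain of the IL-12 receptor, and Ly6c2 (1.13 and 4.07) were also higher. So were the calcium-binding protein genes S100a4 (1.59 and 1.58) and S100a6 (1.15 and 1.51), Cd48 (1.44 and 1.03), the ligand of the receptor 2B4, the protease gene Ctsd, and Emp3, Nptn and Gnptg. Lower were Cd27 (-1.45 and -1.16), a receptor of less mature NK cells, and Ctla2a (-1.15 and -1.53), an inhibitor of cathepsins. These genes were named after their values were seen.

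The lists of mature and immature NK cell genes leaned in opposite directions, with most single members short of 2-fold. Of the 14 mature genes that passed the filter (of 18), 10 had ratios above 0 on both plates and 3 below 0 on both, and the medians were 0.42 on the WT plate and 0.34 on the PD-1-/- plate. None passed 2-fold on the WT plate. On the PD-1-/- plate 3 did upward (Itgam, Ly6c2 and S1pr5) and 1 downward (Emb). Of the 10 immature genes that passed (of 14), 6 had ratios below 0 on both plates and 1 above 0 on both, with medians of -0.28 and -0.33, and none passed 2-fold on either plate. Over all genes the medians were -0.02 and -0.03, as above, and ratios were above 0 on both plates for 22.9% and below 0 on both for 29.3%. Past 2-fold were 1.03% upward and 2.54% downward on the WT plate, and 0.925% and 2.25% on the PD-1-/- plate. The counts of the lists below are to be read beside the same shares.

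**Figure D3:**
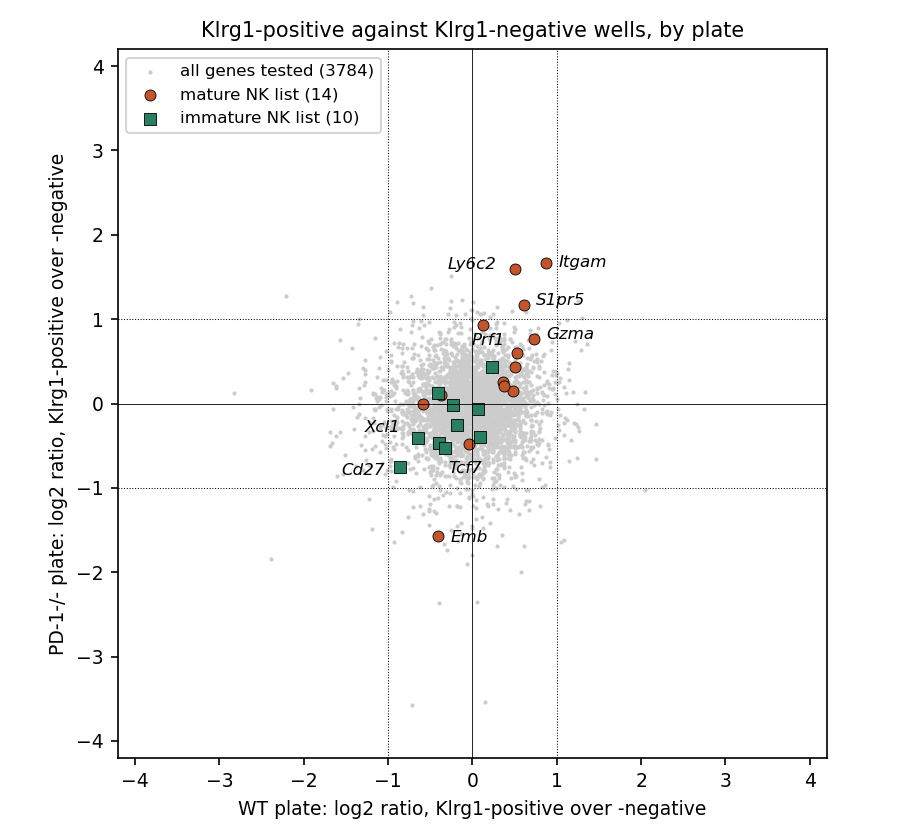
Log2 ratio of mean RPKM in Klrg1-positive over Klrg1-negative wells on the WT plate (horizontal axis) and on the PD-1-/- plate (vertical axis) for the 3784 genes compared (gray), with the mature NK list (14 genes, circles) and the immature NK list (10 genes, squares); dotted lines mark 2-fold. Mature genes such as Itgam (0.87 and 1.67) and S1pr5 (0.61 and 1.17) lie to the upper right and Cd27 (-0.86 and -0.75) to the lower left, while the gray cloud shows no slope.

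Itgam, which encodes CD11b, had the largest ratio of the mature list on both plates among the genes that passed the filter. It was found in 18 of 56 WT members (32.1%, interval 20.3% to 46%) and 15.1% of negative wells (interval 11.3% to 19.7%). On the PD-1-/- plate it was in 28 of 81 members (34.6%, interval 24.3% to 46%) and 16.8% of negative wells (interval 12.7% to 21.7%). The intervals of members and negative wells do not overlap on either plate, and the share in members was 17 and 17.7 points higher. How many of all genes compared have intervals apart was not counted. A share at least 10 points higher in members was seen for 17.8% of all genes on the WT plate and 4.7% on the PD-1-/- plate. On both plates it was seen for 40 genes (1.06%). The median over wells was 0 RPKM in every group, and the highest member reached 480 RPKM on the WT plate and 504 RPKM on the PD-1-/- plate. Since myeloid cells express Itgam too, the wells with myeloid transcripts were left out in a comparison added after the data were seen, and the share was then 18.8 and 18.2 points higher in members. With all kept wells, the difference was 14 points in the upper and 19.6 points in the lower rows of the WT plate, and 28.3 and 7.37 points on the PD-1-/- plate. After thinning, Itgam was in 30.9% of WT members against 13.5%, and in 31.6% of PD-1-/- members against 15.4%.

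S1pr5 was in 33.9% of WT members (interval 21.8% to 47.8%) and 20.4% of negative wells, and in 38.3% of PD-1-/- members (interval 27.7% to 49.7%) and 21.8% of negative wells. The means were 66.2 and 42.9 RPKM on the WT plate and 92.1 and 40.3 RPKM on the PD-1-/- plate. In the upper rows of the WT plate the ratio was -0.40 and in the lower rows 1.46, whereas on the PD-1-/- plate it was 1.94 and 0.33. Read from the other side, 23.5% of the WT wells with S1pr5 and 33.3% of the PD-1-/- wells with S1pr5 were members. Cx3cr1, a chemokine receptor of the most mature NK cells, was rare: it was in 1 of 56 WT members and 0.987% of WT negative wells, and in 13.6% of PD-1-/- members (interval 6.98% to 23%) against 3.16% (interval 1.45% to 5.91%). Cma1, a chymase gene listed with the mature NK genes, was in 16.1% against 9.21% and 17.3% against 6.67%, under the 20% that the filter asked.

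Ly6c2 had a higher mean and share in members on both plates. It was in 61.7% of PD-1-/- members (interval 50.3% to 72.3%) and 30.5% of negative wells, with means of 2101 and 692 RPKM. In WT wells it was in 35.7% and 23.4%, with means of 709.7 and 502 RPKM. Its difference in share was 1.15 points in the upper and 23.1 points in the lower rows of the WT plate, and 37.6 and 24.9 points on the PD-1-/- plate. Ly6 genes resemble each other in sequence, so that the assignment of reads among them is uncertain. Tbx21, which encodes T-bet, the factor that drives NK maturation, had means of 231.9 and 162.6 RPKM on the WT plate and 251.7 and 186.2 RPKM on the PD-1-/- plate, ratios of 0.51 and 0.43 that stayed short of 2-fold. Emb, which encodes the membrane glycoprotein embigin, was one of the 3 mature genes with ratios below 0 on both plates. Its mean was 88.7 RPKM in PD-1-/- members and 264.3 RPKM in negative wells (log2 ratio -1.57), against 196.4 and 260.8 RPKM on the WT plate.

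Among immature genes, Cd27 was in 60.7% of WT members (interval 46.8% to 73.5%) and 75% of negative wells, and in 75.3% of PD-1-/- members (interval 64.5% to 84.2%) and 83.2% of negative wells. The difference of -14.3 points on the WT plate was -1.82 points in its upper and -26.1 points in its lower rows. On the PD-1-/- plate it was -7.85 points, with -14.4 and -1.47 points in these rows and -15.6 points without the wells with CD3 transcripts. The sign was thus the same throughout while the size was not. The means were 92.4 and 168.8 RPKM, and 96.5 and 162.9 RPKM, and the highest members held 789 and 1060 RPKM. The level within wells that had the transcript was also lower in members: its median was 30.4 RPKM against 192.7 RPKM on the WT plate and 5.40 RPKM against 79.1 RPKM on the PD-1-/- plate. Tcf7, the gene of TCF-1, a factor of early NK cells, was in 41.1% of WT members against 56.6% and in 28.4% of PD-1-/- members against 41.8%. Its share was one of 9 (0.238% of genes compared) that were at least 10 points lower on both plates, although in the lower rows of the PD-1-/- plate alone it was 1.35 points higher, and without the wells with CD3 transcripts the difference on that plate was -5.75 points in place of -13.4. Xcl1, a chemokine that attracts dendritic cells, had means of 1102 and 1719 RPKM on the WT plate and 1044 and 1389 RPKM on the PD-1-/- plate. Il7r and Kit, receptors of precursors and innate lymphoid cells, were in 3.57% and 21.4% of WT members and in 8.64% and 7.41% of PD-1-/- members. These are shares of members alone, and no direction against negative wells is read from them.

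**Figure D4:**
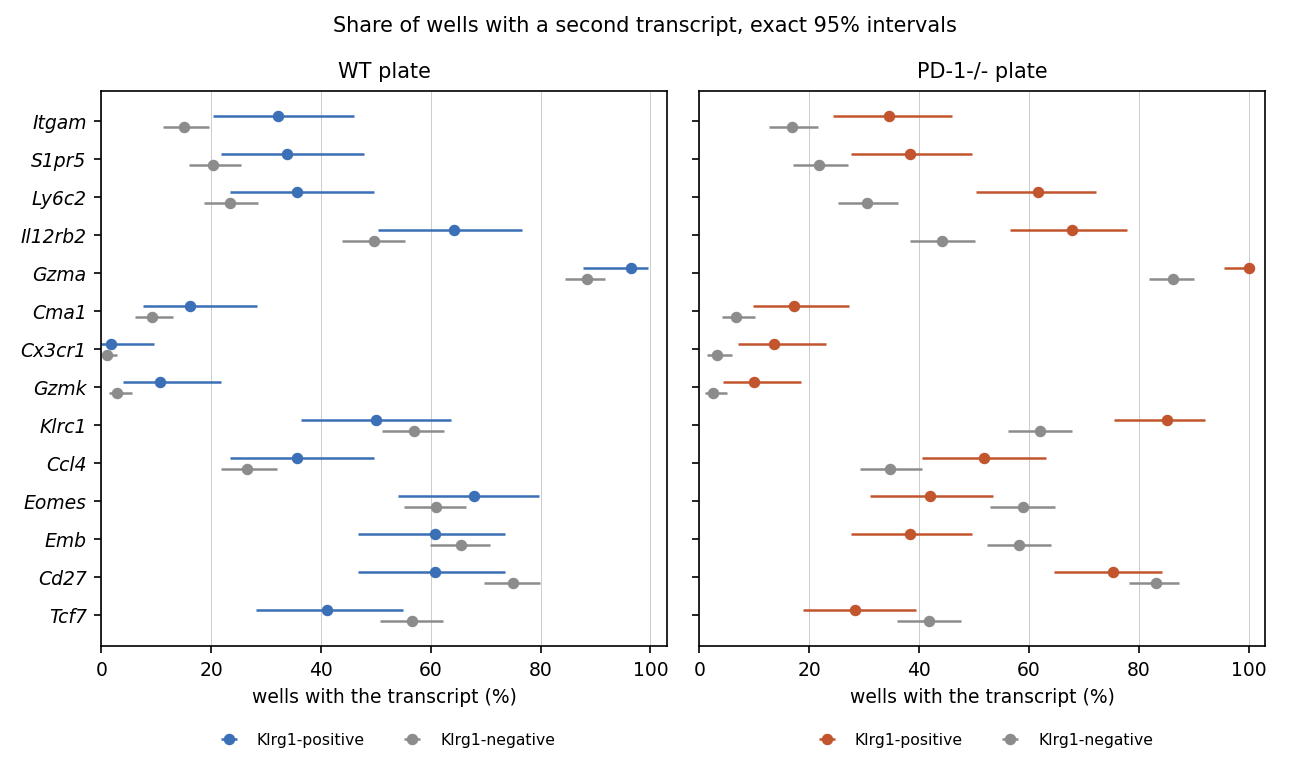
Share of wells, in percent, with each of 14 transcripts in Klrg1-positive (colored) and Klrg1-negative wells (gray) of the WT plate (left) and of the PD-1-/- plate (right), with exact 95% intervals. Intervals of members and negative wells are apart for Itgam on both plates (32.1% against 15.1% and 34.6% against 16.8%), and for S1pr5, Ly6c2, Il12rb2, Gzma, Cx3cr1, Klrc1 and Emb on the PD-1-/- plate alone. The 14 genes were picked for display. How many of all 3784 genes compared have intervals apart was not counted, so these genes are not shown to be special in this.

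Cd27 and Itgam were also read together in each well, a split made after the data were seen, as CD27 and CD11b mark the stages of mouse NK cells. Wells with Cd27 only made up 41.1% of WT members (interval 28.1% to 55%) and 63.2% of negative wells (interval 57.5% to 68.6%), and 53.1% (interval 41.7% to 64.3%) and 70.5% (interval 64.9% to 75.8%) on the PD-1-/- plate. Wells with Itgam only made up 12.5% and 3.29% on the WT plate and 12.3% and 4.21% on the PD-1-/- plate. Wells with both transcripts were 19.6% and 11.8%, and 22.2% and 12.6%. The class with Cd27 only was thus smaller in members on both plates with intervals apart, yet it stayed the largest class among members of either plate. A transcript missed in a well places it in another class. Where Itgam is missed, a well with both counts as Cd27 only, and where Cd27 is missed, it counts as Itgam only. These classes are therefore not the protein stages, and the part of missed reads in their sizes was not tested.

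**Figure D5:**
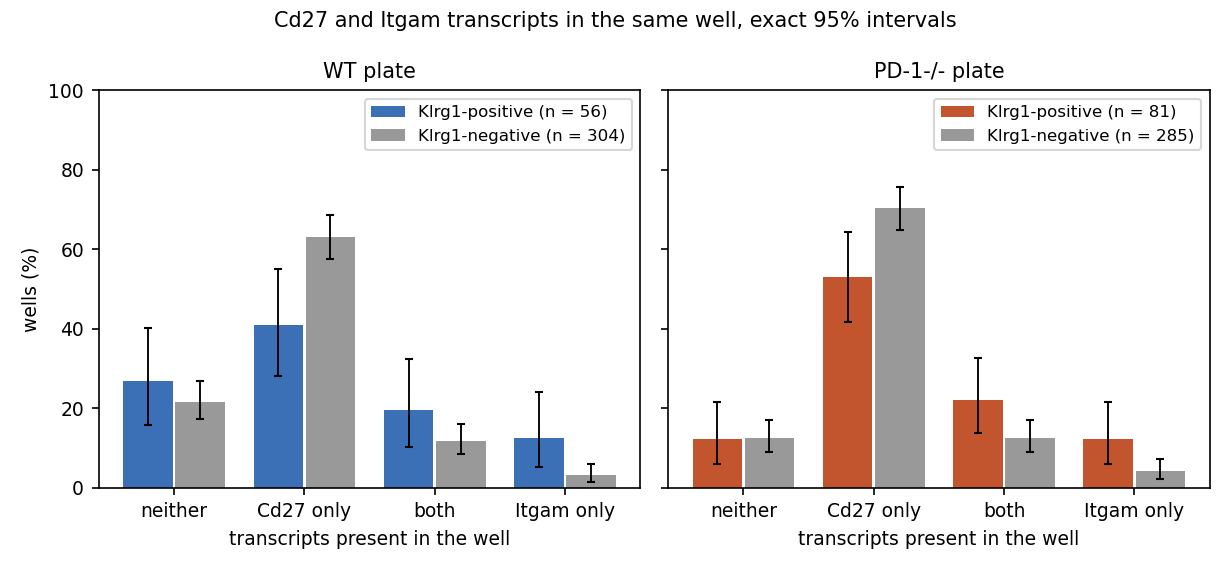
Share of wells, in percent, with neither transcript, Cd27 only, both, or Itgam only, in Klrg1-positive (colored) and Klrg1-negative wells (gray) of the WT plate (left) and of the PD-1-/- plate (right); error bars are exact 95% intervals. Cd27 only is the largest class in all 4 groups, at 41.1% and 53.1% of members and 63.2% and 70.5% of negative wells.

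Of the cytotoxic genes 13 passed the filter (of 16), 8 had ratios above 0 on both plates and 1 below 0 on both, and the medians were 0.33 and 0.07. Gzma was at the highest level: WT members ranged up to 36520 RPKM with a median of 11680 RPKM, against a median of 5592 RPKM in negative wells, and PD-1-/- members up to 46270 RPKM with a median of 13130 RPKM, against 6117 RPKM. It was present in 54 of 56 WT members and in all 81 PD-1-/- members, against 88.5% and 86.3% of negative wells. The ratios of means were 0.73 and 0.77. Prf1 had medians of 1330 and 777 RPKM on the WT plate and 1408 and 833 RPKM on the PD-1-/- plate, with ratios of 0.53 and 0.60. The median of Gzmb was 1364 against 1092 RPKM on the WT plate and 3060 against 1708 RPKM on the PD-1-/- plate. The ranges of members and negative wells overlapped for all 3. Gzmk, granzyme K, was present in few wells, 10.7% of WT members and 2.96% of negative wells, and 9.88% and 2.46% on the PD-1-/- plate. Of the wells with Gzmk, 6 of 15 WT and 8 of 15 PD-1-/- wells were members (40% and 53.3%).

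Gzmc, a granzyme induced by strong cytokine stimulation, went in opposite directions by the mean. It was 1589 RPKM in WT members and 382.7 RPKM in negative wells (log2 ratio 2.05), but lower in PD-1-/- members than in the negative wells of that plate, which held 613 RPKM (ratio -1.02). The shares differed less, 39.3% against 30.9% and 23.5% against 22.8%, and single wells reached 30060 and 32190 RPKM in WT members and negative wells, and 12920 and 21750 RPKM on the PD-1-/- plate. Nkg7 and Ctsw, granule genes of all NK cells, were in 100% and 98.2% of WT members and in 100% and 96.3% of PD-1-/- members, with ratios between 0.01 and 0.26.

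Of the cytokine and chemokine genes 8 passed the filter (of 16), 1 with ratios above 0 on both plates and 3 below 0 on both, and the medians were -0.63 on the WT plate and 0.07 on the PD-1-/- plate. In WT members 1 was 2-fold lower (2.54% of all genes were), and in PD-1-/- members 3 were 2-fold higher and 1 was lower (0.925% and 2.25% of all genes). Ccl5, a chemokine for T cells and myeloid cells, had a median of 10950 RPKM in PD-1-/- members (highest 37520 RPKM) and 3129 RPKM in negative wells, with means of 12820 and 6130 RPKM (log2 ratio 1.06). On the WT plate the medians were 4087 and 3184 RPKM and the ratio was 0.09. Ifng, the gene of interferon-gamma, was in 35.8% of PD-1-/- members and 29.8% of negative wells, and the means of 249.4 and 108.7 RPKM (ratio 1.19) rested in part on 1 well of 10040 RPKM, without which, and without the highest negative well, the ratio was 0.30. In WT wells Ifng was in 21.4% and 26.6%. Ccl4 was in more members than negative wells on both plates, 35.7% against 26.6% and 51.9% against 34.7%, yet its mean was lower in WT members (142.7 against 664 RPKM, ratio -2.21) and higher in PD-1-/- members (1960 against 809 RPKM, ratio 1.28). The highest wells held 48170 RPKM among WT negative wells and 76350 RPKM among PD-1-/- members. Spp1, the gene of osteopontin, was lower in PD-1-/- members, with means of 68.4 and 823 RPKM (ratio -3.57) and shares of 19.8% and 29.1%. Its share in WT wells was 25% against 15.1% and its ratio -0.72, so that share and mean differed in sign.

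Of the receptors that inhibit NK cells, as KLRG1 does, 11 of 24 passed the filter, with medians of 0.04 and 0.11. Ratios were above 0 on both plates for 5 of them and below 0 on both for 2, against 22.9% and 29.3% of all genes compared. Klrc1, which encodes NKG2A, a receptor for Qa-1, was in 85.2% of PD-1-/- members (interval 75.6% to 92.1%) and 62.1% of negative wells (interval 56.2% to 67.8%), with medians of 381.4 and 145.1 RPKM. Among WT wells it was in 50% of members (interval 36.3% to 63.7%) and 56.9% of negative wells. The members of the 2 plates thus lay apart in Klrc1, at 50% and 85.2%, and whether they differ more than the negative wells (56.9% and 62.1%) was not tested. Klra3 (Ly49C) had a mean of 288.3 RPKM in WT members and 245.3 RPKM in PD-1-/- members, with ratios of 0.75 and 0.83, although Klra genes share much of their sequence and reads could have been split among them. Lair1, a receptor for collagen, was in 14.3% against 5.59% and 16% against 8.77%. Lilrb4 was 2-fold lower in PD-1-/- members (70.3 against 194.2 RPKM, ratio -1.45) and had a ratio of 0.00 on the WT plate.

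Pdcd1, the gene of PD-1, was in 2 of 56 WT members and 7 WT negative wells (3.57% and 2.3%), and in 17.3% of PD-1-/- members (interval 9.78% to 27.3%) and 11.6% of negative wells (interval 8.11% to 15.9%). The values do not tell which part of the gene was read on the PD-1-/- plate. Of all wells with Pdcd1, 2 of 9 on the WT plate and 14 of 47 on the PD-1-/- plate were members. Activating receptors, 17 of 23 passing the filter, had none past 2-fold on either plate and medians of 0.13 and -0.01. Cd226, which encodes DNAM-1, was in 28.6% of WT members and 17.4% of negative wells, and in 38.3% and 35.4% on the PD-1-/- plate.

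The genes of the phosphatases and cadherins that KLRG1 works with were listed with Ptpn6 for comparison. Of these 6 genes 2 passed the filter, Inpp5d and Ptpn6, and neither was past 2-fold on either plate. Inpp5d, the gene of SHIP-1, was in 67.9% of WT members and 66.4% of negative wells, and in 65.4% and 66.3% on the PD-1-/- plate, with ratios of 0.01 and 0.02. Ptpn11, which encodes SHP-2, was in 16.1% and 20.7%, and in 14.8% and 19.3%, with ratios of -0.09 and -0.87, and did not pass the filter. Ptpn6, which encodes the related SHP-1, was in 66.1% of WT members and 55.6% of negative wells but in 46.9% and 58.2% on the PD-1-/- plate. The cadherin genes Cdh1, Cdh2 and Cdh4 were nearly absent from these NK cells, with 1.79% of WT members and 2.47% of PD-1-/- members holding Cdh1 and 0 members of either plate holding Cdh2 or Cdh4, which by the same limit of 3 wells allows shares of up to 5.36% and 3.7%. Other cells of the tumors were not measured.

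Among transcription factors, 18 of 31 genes found passed the filter, 5 with ratios above 0 on both plates and 5 below 0, and the medians were -0.14 and 0.10. On the PD-1-/- plate Klf3 was higher (1.09), and Eomes (-1.25) and Tox (-1.63) were lower. Eomes, a T-box factor that NK cells need for their identity, was in 42% of PD-1-/- members (interval 31.1% to 53.5%) and 58.9% of negative wells (interval 53% to 64.7%), with means of 35.96 and 86.8 RPKM. On the WT plate the mean was also lower, 64.3 against 92.3 RPKM (ratio -0.52), but the share was 67.9% against 60.9%. Id2 was in all members of both plates. Of the cytokine receptors, 11 passed (of 17), and Il18r1 alone passed 2-fold, lower in WT members (mean 46.3 RPKM, ratio -1.22) and with a ratio of -0.22 on the PD-1-/- plate. Il12rb2 was in 64.3% of WT members and 49.7% of negative wells, and in 67.9% (interval 56.6% to 77.8%) and 44.2% (interval 38.4% to 50.2%) on the PD-1-/- plate.

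Genes of tissue-resident NK cells and ILC1 mostly fell under the filter, with 2 of 16 found passing. Itga1, the integrin CD49a, was in 21.4% of WT members (interval 11.6% to 34.4%) and 11.8% of negative wells, and in 37% (interval 26.6% to 48.5%) and 21.1% (interval 16.5% to 26.3%) on the PD-1-/- plate. Cxcr6 was in 10.7% and 7.24%, and in 28.4% and 18.9%, and without the wells with CD3 transcripts its difference on the PD-1-/- plate was 2.46 points in place of 9.45. Itga1 and Cxcr6 were each missing from most members, and 33.3% of the PD-1-/- wells with Itga1 and 29.9% of those with Cxcr6 were members. The genes that passed the filter were Cish, with ratios of 0.85 and 0.59, and Rgs1, with ratios of -0.54 and -0.05. Homing receptors, 15 of 20 passing, had medians of -0.01 and 0.25. Ccr2 was in 89.3% of WT members against 78.9% but in 55.6% of PD-1-/- members (interval 44.1% to 66.6%) against 74.7% (interval 69.3% to 79.7%). Of 12 genes of cycling cells only Pcna passed the filter, with ratios of 0.38 and 0.71, and Mki67 was in 3.57% and 11.1% of members.

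By shares alone, a rule added after the data were seen, 40 genes (1.06%) were present in at least 10 points more members than negative wells on both plates, and 43 genes (1.14%) differed by that much in opposite directions. On the WT plate 17.8% of all genes were at least 10 points higher in members and 1.96% lower, on the PD-1-/- plate 4.7% and 6.21%. Among the 40 were Itgam, S1pr5, Ly6c2, Il12rb2 and the S100 genes S100a4 and S100a6. Entpd1, which encodes the ectonucleotidase CD39, was in 21.4% of WT members (interval 11.6% to 34.4%) and 8.88% of negative wells (interval 5.93% to 12.7%), and in 33.3% (interval 23.2% to 44.7%) and 11.9% (interval 8.4% to 16.3%) on the PD-1-/- plate, where its mean was 54.04 against 16.8 RPKM (ratio 1.63). Lrpap1, a chaperone of the LDL receptor family, was in 41.1% against 23% and 49.4% against 31.9%.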

How the data were processed

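The authors sorted single NK cells into 2 plates of 384 wells, made SMART-SEQ2 libraries and deposited RPKM values for 24490 gene entries in each of 768 wells. The submitters' processing notes name TopHat and Cufflinks and the builds mm9 and mm10, without roles or versions. No coordinates are therefore given. The study also removed cells rich in apoptotic transcripts, a step that was not repeated as its gene list and limit are not given in the sources used here.

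Wells were grouped by the genotype in the labels. The sort used 1 further surface marker that is not reported here. Genes above 0 RPKM in at least 3 wells (14761 genes) were counted, and wells with 1000 to 3500 of them were kept. These were 360 WT and 366 PD-1-/- wells, of which 137 were members and 304 WT and 285 PD-1-/- wells had Klrg1 at 0. Log2 ratios are of mean RPKM with a pseudocount of 1, where either group of each plate reached a mean of 10 RPKM and presence in 20% of its wells. Intervals are exact binomial. Since low RPKM values of a gene lie on multiples of 1 read, read numbers were worked out for 9718 genes (99.8% of 668348 values below 60 reads lay within a relative tolerance of 0.0003 of a whole number) and were used for depth and thinning only. A count test was not run, as each genotype is 1 pool. Recovery and the fold rule were also run on simulated data in which genes were drawn independently. That setting does not show how the fold rule behaves where single wells hold extreme values, as in these data. Python 3.11.15, numpy 2.4.6, pandas 2.3.3, scipy 1.17.1 and matplotlib 3.10.9 were used.

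The members and the 19 gene lists were chosen with earlier results of these data known. Of the 217 genes in them, 215 were found. Those past 2-fold alike on both plates and up to 4 best known genes of a list were to be named, with the 12 largest changes in each direction among genes alike on both plates. Other genes were named after their values were seen. In 17 alternatives, other choices were made for the wells, plate rows, depth, scaling, pseudocount, filter, fold and level that counts as present. The share rule, the Cd27 and Itgam classes, the split by depth and the comparison without myeloid transcripts were added after the data were seen.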

Additional observations from a re-analysis of the deposited data

Results flagged for a closer look

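Ccl4 and Gzmc stood out because their means in Klrg1-positive wells passed 2-fold in opposite directions on the 2 plates, and this difference between plates was not tested. The log2 ratio of Ccl4 was -2.21 on the WT plate and 1.28 on the PD-1-/- plate. Without the highest well of each group the ratios were -2.10 and 0.50, and with the mean of log2 values per well 0.51 and 1.61, so that the direction on the WT plate depends on the scale. The log2 ratio of Gzmc was 2.05 on the WT plate and -1.02 on the PD-1-/- plate, 1.94 and -1.90 without the highest well of each group, and 1.23 and -0.40 with log2 values per well. Genotype and plate cannot be told apart.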

How the results depend on the processing

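Klrg1 was in 13.9% to 16.5% of WT wells and 20.5% to 22.7% of PD-1-/- wells under all alternatives that changed the wells. Genes past 2-fold moved far more (3.57% of the genes compared on the WT plate, 3.17% on the PD-1-/- plate and 5 genes alike on both, as reported). Alike on both plates were 11 genes with Klrg1 counted from 10 RPKM, 12 in wells with 1500 to 3000 genes, 14 without wells with CD3 transcripts, 9 without wells with myeloid transcripts (added after the data were seen) and 10 in rows C to P. Rows A to H gave 10.1% (WT), 10.5% (PD-1-/-) and 35 genes alike, and rows I to P 10.8%, 7.45% and 41. With a pseudocount of 10 these were 0.634%, 0.978% and 1, without a filter 19.9%, 16.9% and 475, and with 1.5-fold 16.4%, 14.6% and 67. A mean of at least 50 RPKM gave 2.11% and 2.6%, and thinned wells 2.9% (85 genes) on the WT plate. Mean log2 values per well gave 6.08% on the WT plate and 15 alike, and leaving out the highest well of each group 6.18% and 15. Genes with shares 10 points higher on both plates were at least 26 in each alternative, and lower 1 to 29.

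Of 140 ratios and share differences of single genes, 36 did not keep their sign under every alternative, 18 of them ratios. Among values past 2-fold or 10 points as reported, there were 5 changes of sign over the alternatives. The WT ratio of Pdcd1 changed to -0.50 without wells with CD3 transcripts. The WT ratio of Cx3cr1 changed under separate alternatives, to -0.34 in rows I to P and to -0.18 without the highest wells. The PD-1-/- share difference of Tcf7 changed to 1.35 points in rows I to P. The WT ratio of Ccl4 changed to 0.51 with log2 values per well. The causes were not tested.

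No paired analysis was possible because each genotype is 1 pool of mice on 1 plate and the numbers in the labels name wells. No replicate was left out for the same reason. The depth of a well limits every share, as a transcript at 0 is not shown to be absent.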
